A study of Mus musculus with 6 samples.

Results

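Transcripts of 57 genes that encode synaptic vesicle proteins, SNAREs and their regulators, calcium sensors of release and active zone proteins were measured in the medial prefrontal cortex (mPFC) of mice trained with saline or morphine. The genes were chosen by name from a list of 58 symbols, which was drawn up with earlier results of these data known. Of these, 57 had a row in the table of 31763 genes, and Vamp7, a SNARE of late endosomes, is not analysed here. All 57 passed the filter on low counts (10 or more counts in no fewer than 3 libraries), as did 18970 genes overall. Male C57BL/6J mice aged 8 to 10 weeks were injected intraperitoneally with 10 ml/kg of saline or with morphine at 10 mg/kg on 5 consecutive training days of conditioned place preference, a test in which an animal learns to associate a chamber with a drug. Both groups then spent a week in the home cage, and tissue was taken on day 13, directly after the retrieval test, so that both groups had also been handled and tested. The comparison therefore asks what differed between 3 saline and 3 morphine samples after a drug-free interval, not during drug action. No source used here says whether a sample was 1 mouse or a pool, and p-values cover the spread among the samples at hand.

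Transmitter is released when a synaptic vesicle fuses with the presynaptic membrane. The vesicle SNARE synaptobrevin (Vamp1, Vamp2) zippers with the membrane SNAREs syntaxin (Stx1a) and SNAP-25 (Snap25), synaptotagmins sense the calcium that triggers fusion, and complexins clamp and promote the assembled complex. Munc13 and RIM proteins prime vesicles at the active zone, where Bassoon and Piccolo form the scaffold, and NSF with its SNAP adaptors (Napa, Napb, Napg) takes spent SNARE complexes apart. These genes are expressed mainly by neurons, so that in bulk tissue fewer neurons and less RNA per neuron cannot be told apart.

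Total counts per library ranged from 17984153 to 23529592. No gene of the 18970 tested passed an adjusted p of 0.05 (edgeR quasi-likelihood test with Benjamini-Hochberg adjustment, 0% called), and DESeq2 called 16 genes (0.0843%), none of them among the 57. The library of saline sample 1 differed from the rest. Of 17 tested genes that mark the olfactory bulb, 16 were more than 2 times as high in it as in any other library, and their summed normalized counts (CPM, counts scaled to library size) were 1148 there against 336 to 383 elsewhere. Defining markers of cortical neurons were present in every library, with Slc17a7, the vesicular glutamate transporter of cortical excitatory neurons, at 1215 to 1361 CPM. Members whose log2 fold change moved by more than 0.05 when saline sample 1 was left out are therefore given with and without it.

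The 57 genes spanned more than 2 orders of magnitude in level. By mean FPKM over the 6 libraries, a unit per transcript length that allows genes to be compared, they ran from 1.38 for Cplx3 to 244 for Snap25, and their summed FPKM was 1.63% of the sum over all genes of the table. The 10 highest were Snap25 (244), Syt1 (202), Cplx2 (192), Vamp2 (175), Syp (158), Syngr1 (133), Cplx1 (132), Syt11 (127), Syn1 (122) and Rab3a (119). Snap25, Syt1, Cplx2 and Vamp2 thus came from the fusion machinery itself, and the vesicle membrane proteins synaptophysin (Syp) and synaptogyrin 1 (Syngr1) followed. Neighbours in this order were close. Mean FPKM in saline was 132 ± 2.36 (SD, n = 3) for Syngr1 and 130.1 ± 7.53 for Cplx1, which did not differ beyond their spread, whereas Syp stood at 154 ± 2.54.

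**Figure D1:**
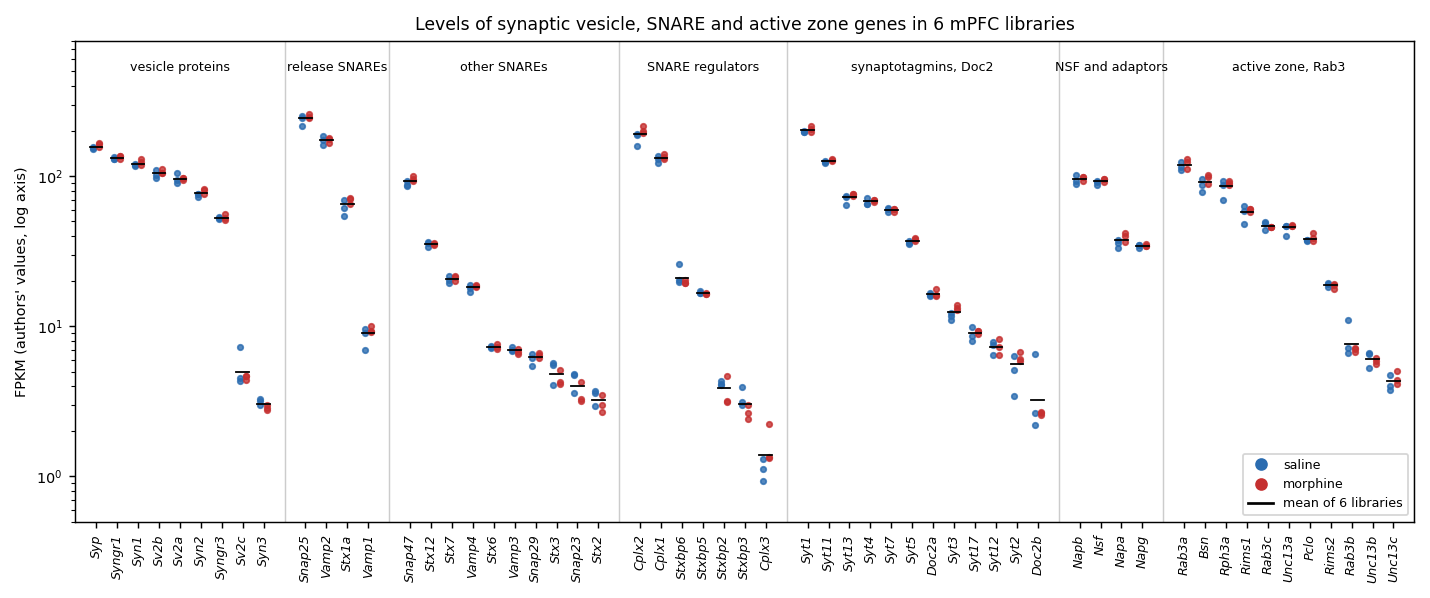
FPKM (log axis) of the 57 genes, grouped by role and ordered by level within each role. Blue points are the 3 saline and red points the 3 morphine libraries, and the black line is the mean of 6, which runs from 1.38 (Cplx3) to 244 (Snap25). The blue points that lie far from the others, high for Doc2b and low for Syt2, are both saline sample 1.

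In several families a single gene made up most of the level. Within the 4 SNAP-type SNAREs, Snap25 made up 70.4% ± 1.44 of the family's summed FPKM in saline and 70.2% ± 0.930 in morphine (n = 3 each). Vamp2 made up 83.9% ± 1.14 and 83.4% ± 0.599 of the 4 VAMP genes in the same groups. Among Munc13 proteins, which prime vesicles, Unc13a held 81.1% ± 0.547 in saline and 81.9% ± 0.748 in morphine. The differences for Snap25 and Vamp2 were smaller than the SD of either group, whereas that for Unc13a was larger than the saline SD and smaller than the morphine SD. In saline, Doc2a held 81.7% ± 9.40 of Doc2a and Doc2b together, and Rims1 held 74.8% ± 2.25 of Rims1 and Rims2 together. Leading shares were lower in some other families, with 50.3% ± 3.45 for Sv2b among the SV2 genes and 46.2% ± 3.38 for Stx1a among the syntaxins in saline. Synaptotagmins were more evenly spread, with 33.7% ± 0.666 for Syt1, the fast calcium sensor of synchronous release, 21.2% ± 0.416 for Syt11, a synaptotagmin that does not bind calcium, and 11.9% ± 0.731 for Syt13 in saline. Complexins were shared between Cplx2 (57.7% ± 3.83 in saline) and Cplx1 (42.0% ± 3.76), with Cplx3 at 0.363% ± 0.0712.

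Between the groups, 42 of the 57 genes had a log2 fold change (morphine over saline) above 0 and 15 below. The median was 0.06, against -0.01 over all 18970 tested genes, of which 47.5% were above 0. No member passed an adjusted p of 0.05, and the lowest adjusted p was 0.616. At an unadjusted p under 0.05 in edgeR, 5 members were higher in morphine (Syt3, Cplx2, Snap47, Cplx3 and Napa) where 2.77% of all tested genes were, and 1 was lower (Stxbp3) where 4.96% were. DESeq2 gave the same 6 and also Bsn and Stx1a, both higher, where 2.003% of all tested genes were higher and 3.13% lower. In 8 members (14.0%) all 3 morphine libraries lay above all 3 saline libraries, where 5.98% of all tested genes did so, and in 0 members did they all lie below, where 7.32% did. The count of higher genes at unadjusted p depended on single libraries. The share of all tested genes that were higher moved as well, and is given in parentheses after each count. Leaving out morphine sample 1 left 1 such member (1.33%), and leaving out morphine sample 3 left 2 (1.64%). The count was 3 (2.68%) and 4 (4.14%) when saline samples 3 and 1 were left out. Dropping saline sample 2 gave 9 (3.48%), and dropping morphine sample 2 gave 13 (3.95%).

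Syt3, a synaptotagmin of high calcium affinity, had 36.1, 38.6 and 34.2 CPM in saline (in the order of the sample numbers, as throughout) and 44.0, 40.8 and 41.0 CPM in morphine. Its groups did not overlap, and the log2 fold change was 0.21 (SE 0.07, adjusted p = 0.616 by edgeR). Without saline sample 1 the change was 0.20, and without morphine sample 2 it was 0.23.

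Cplx2 (chr13:54371349-54383917 in GRCm38), the complexin of highest level here, had 768, 941 and 933 CPM in saline and 1078, 952 and 1012.5 CPM in morphine. The groups did not overlap, but the lowest morphine value was just above the highest saline value, and saline sample 1 was the lowest of the 6. The log2 fold change was 0.20 (SE 0.08, edgeR adjusted p = 0.619) and 0.12 without saline sample 1.

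Cplx3, a complexin of the deepest cortical layer and of retinal synapses, was the least abundant member, with 3.80, 3.35 and 2.76 CPM in saline and 4.04, 6.57 and 3.98 CPM in morphine. All 3 morphine values were above the saline values, and morphine sample 2 was far above the other 5. The log2 fold change was 0.55 (SE 0.23, edgeR adjusted p = 0.626) and 0.28 (adjusted p = 0.622) without morphine sample 2. It was 0.66 without saline sample 1. Of the markers of the deepest layer, Ctgf had 13.2, 8.49 and 8.02 CPM in saline and 9.46, 14.6 and 7.96 CPM in morphine, and so was also highest in morphine sample 2, followed by saline sample 1. Nxph4 differed from it, with 2.98, 0.330 and 0.460 CPM in saline and 1.051, 0.993 and 0.173 CPM in morphine. The summed CPM of the 12 deep layer markers was 444.5 to 599.7 in saline and 488 to 515 in morphine. Their part in the Cplx3 difference was not tested.

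Snap47, a SNAP-25 relative without the membrane anchor of SNAP-25, had 224, 233 and 248 CPM in saline and 257, 247 and 273 CPM in morphine. The groups overlapped by 1 pair of libraries, and the log2 fold change was 0.14 (SE 0.06, edgeR adjusted p = 0.619). Without saline sample 1, the lowest library, it was 0.11 (adjusted p = 0.442) and the unadjusted p was no longer under 0.05. Its exons share 307 bp with those of Jmjd4 on the opposite strand, whose counts came to 20.9% of those of Snap47, and the strand setting of the counting was not given in the sources used here.

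Napa, which encodes the adaptor alpha-SNAP, had 124, 144 and 136 CPM in saline and 161, 138 and 154 CPM in morphine. Morphine sample 2 lay within the saline range, and the log2 fold change was 0.16 (SE 0.07, edgeR adjusted p = 0.638). Saline sample 1 was the lowest library, and without it the change was 0.11 (adjusted p = 0.511) and the unadjusted p was no longer under 0.05.

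Stxbp3, a Munc18 relative of broad tissue expression that binds syntaxins outside the synapse, was the sole member below an unadjusted p of 0.05 in the lower direction. It had 20.7, 16.1 and 16.7 CPM in saline and 16.3, 14.0 and 13.2 CPM in morphine. Saline sample 1 was the highest and morphine sample 1 lay within the saline range. The log2 fold change was -0.30 (SE 0.12, edgeR adjusted p = 0.619) and -0.18 without saline sample 1, where the unadjusted p was no longer under 0.05.

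**Figure D2:**
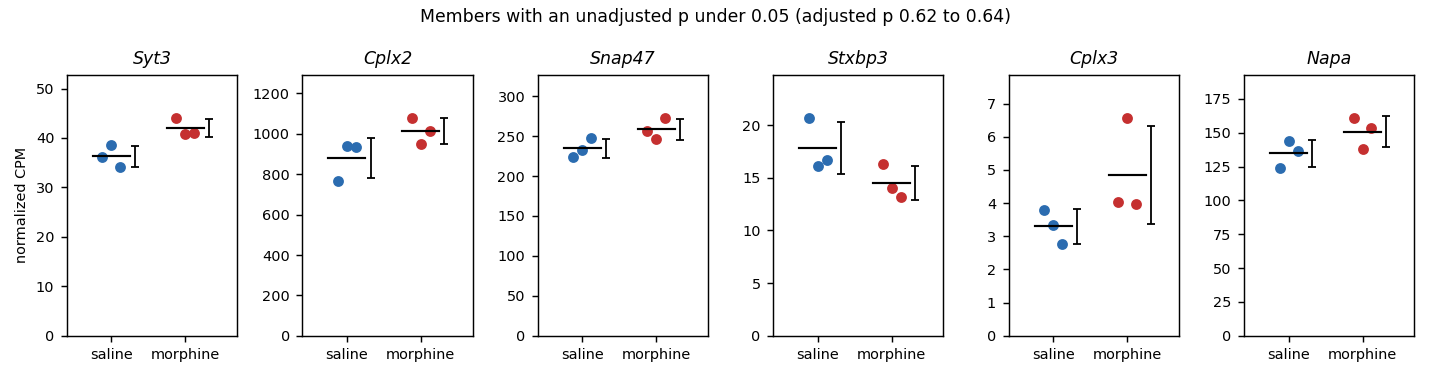
Normalized CPM of the 6 genes with an unadjusted p under 0.05, each on its own axis that starts at 0. Points are samples 1 to 3 from left to right, the line is the group mean and the bar is the SD (n = 3), and the groups overlap for Snap47, Stxbp3 and Napa but not for Syt3, Cplx2 and Cplx3.

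Promoter sequences of these genes are printed so that elements they share, or lack, can be seen side by side. No chromatin mark or bound factor was measured. RefSeq promoters (GRCm38.p6) of 300 bases, from 250 before to 50 after a transcription start, matched 42 of the 57 genes with 54 starts. Printed are 270 bases (250 before and 20 after the start) of 5 of the 6 genes above, and of Syn1 for comparison. The RefSeq start given for Cplx2 lies 68.8 kb from the GENCODE start of the gene and is not printed. Capitals mark matches, on either strand, to the cAMP response element (CRE, TGACGTCA), the SP1 box (GGGCGG), the EGR box (GCGNGGGCG) or a part of the REST element (TTCAGCACC or GGACAGCGC).
Syt3, chr7:44383876-44384145, plus strand: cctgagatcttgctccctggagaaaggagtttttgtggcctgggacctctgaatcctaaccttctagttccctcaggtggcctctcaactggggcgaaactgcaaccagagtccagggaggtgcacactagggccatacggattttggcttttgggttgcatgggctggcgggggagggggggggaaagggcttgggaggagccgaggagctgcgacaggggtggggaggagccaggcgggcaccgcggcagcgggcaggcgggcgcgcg
Snap47, chr11:59450015-59450284, minus strand: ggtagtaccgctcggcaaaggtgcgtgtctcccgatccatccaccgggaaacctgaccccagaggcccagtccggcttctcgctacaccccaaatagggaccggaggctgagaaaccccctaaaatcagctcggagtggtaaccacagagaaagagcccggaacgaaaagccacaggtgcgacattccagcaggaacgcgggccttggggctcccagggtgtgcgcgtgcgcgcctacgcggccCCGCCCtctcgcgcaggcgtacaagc
Cplx3, chr9:57606262-57606531, minus strand: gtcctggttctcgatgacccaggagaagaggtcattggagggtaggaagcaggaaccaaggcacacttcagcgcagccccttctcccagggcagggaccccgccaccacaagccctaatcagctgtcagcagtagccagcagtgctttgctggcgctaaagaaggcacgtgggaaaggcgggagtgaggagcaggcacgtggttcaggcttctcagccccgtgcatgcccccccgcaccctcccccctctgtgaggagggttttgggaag
Napa, chr7:16098330-16098599, plus strand: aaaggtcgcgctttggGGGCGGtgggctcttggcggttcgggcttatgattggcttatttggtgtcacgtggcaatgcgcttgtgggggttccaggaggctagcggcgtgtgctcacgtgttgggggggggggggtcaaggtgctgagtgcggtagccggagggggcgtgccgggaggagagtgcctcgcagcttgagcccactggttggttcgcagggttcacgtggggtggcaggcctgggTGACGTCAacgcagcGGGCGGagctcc
Stxbp3, chr3:108840483-108840752, minus strand: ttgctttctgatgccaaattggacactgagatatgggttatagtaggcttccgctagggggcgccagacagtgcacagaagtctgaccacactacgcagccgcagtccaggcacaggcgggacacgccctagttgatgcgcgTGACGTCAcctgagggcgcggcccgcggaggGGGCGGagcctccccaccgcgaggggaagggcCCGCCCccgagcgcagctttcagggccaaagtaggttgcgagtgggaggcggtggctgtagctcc
Syn1, chrX:20920899-20921168, minus strand: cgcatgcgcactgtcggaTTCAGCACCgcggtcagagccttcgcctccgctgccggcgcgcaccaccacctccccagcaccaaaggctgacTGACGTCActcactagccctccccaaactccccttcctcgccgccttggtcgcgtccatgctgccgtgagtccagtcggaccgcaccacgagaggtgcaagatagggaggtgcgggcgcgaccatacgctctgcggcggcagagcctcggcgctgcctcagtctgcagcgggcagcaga

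The CRE, the element bound by CREB, began 108 bases before the start of Stxbp3, 159 before that of Syn1 and 7 before that of Napa, where it reaches into the transcript. The windows of Syt3 and Cplx3 held none of these motifs, and that of Snap47 held an SP1 box 6 bases before the start. Across the 54 member windows of 300 bases, 3 (5.56%) held the full CRE, against 1.79% of all 32851 windows, and 12 (22.2%) held its 5-base core TGACG, which is contained in the full CRE, against 20.8%. The SP1 box stood in 59.3% against 35.7% and the EGR box, whose last bases overlap an SP1 box when a G follows, in 14.8% against 5.55%. The TATA box (TATAAA) stood in 9.26% against 13.6%. A part of the REST element, which recruits a repressor of neuronal genes in other tissues, stood in the windows of Syn1 and Unc13a (3.70% against 0.761%). The member windows were also richer in G and C, with a median of 62.2% against 52.7% and 19 against 7 CpG pairs, and the SP1 and EGR boxes consist of these bases. Genes with several starts enter more than once, and a match is a description of letters.

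Among the 9 vesicle membrane proteins and synapsins, 7 had log2 fold changes above 0, with a median of 0.05 and none at an unadjusted p under 0.05. Syp had 801, 801 and 788 CPM in saline and 874, 809 and 869.8 CPM in morphine, and its groups did not overlap (log2 fold change 0.09, SE 0.05, edgeR adjusted p = 0.677). Syn1, which tethers vesicles in the reserve pool, had 389, 394 and 386 CPM in saline and 436, 387 and 420.1 CPM in morphine, with a log2 fold change of 0.09 (SE 0.06, adjusted p = 0.7). Syngr1 had 620.4, 649 and 623 CPM against 665, 622 and 671, with a change of 0.05 (SE 0.05, adjusted p = 0.814). In all 3 genes morphine samples 1 and 3 were the highest libraries and morphine sample 2 lay at the level of saline. Syn3 differed in direction from the other synapsins, with 39.6, 37.1 and 39.2 CPM in saline and 37.2, 33.8 and 35.8 CPM in morphine (log2 fold change -0.12, adjusted p = 0.683). Its share of synapsin FPKM was 1.60% ± 0.0568 in saline and 1.39% ± 0.0247 in morphine. Timp3 lies inside Syn3 on the opposite strand, with 1733 bp of shared exon and counts that were 223% of its own, so the Syn3 level is uncertain. Of the SV2 transporters, Sv2a (log2 fold change 0.01) and Sv2b (0.08) were near 0 (0.07 for Sv2a without saline sample 1), and Syn2 and Syngr3 were at 0.10 and 0.03.

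The 4 SNAREs of transmitter release were all above 0, with a median of 0.14. Snap25 had 1438, 1708 and 1655 CPM in saline and 1789.8, 1649 and 1724 CPM in morphine, a log2 fold change of 0.10 (SE 0.07, edgeR adjusted p = 0.719). Vamp2 had 699, 667 and 618 CPM against 698, 633 and 683, a change of 0.02 (SE 0.06, adjusted p = 0.937). Stx1a had 143, 186 and 164 CPM against 195, 172 and 191, a change of 0.18 (SE 0.09, adjusted p = 0.662 in edgeR and 0.881 in DESeq2). Saline sample 1 was the lowest library for Snap25 and Stx1a, and without it their changes were 0.03 and 0.09.

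The 10 SNAREs of other or broader membrane traffic had a median log2 fold change of 0.02, with 6 above 0. Vamp4, a SNARE of the trans-Golgi network and endosomes, had 84.2, 77.7 and 82.2 CPM in saline and 85.8, 85.1 and 84.8 CPM in morphine, groups that did not overlap although they differed by a log2 fold change of 0.07. The endosomal SNAREs Stx7 (0.05), Stx12 (0.01), Stx6 (0.02) and Vamp3 (-0.04) were near 0. Snap29 was at 0.10, but 60 bp of its exons are shared with Pi4ka, whose counts were 2302% of its own.

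Snap23, Stx3 and Stx2 are given by library because they moved when saline sample 1 was left out. All 3 were under 10 FPKM, a class in which 41.0% of all tested genes were above 0, with a median of -0.04. Snap23, a SNAP-25 relative of broad tissue expression, had 15.3, 20.6 and 20.7 CPM in saline and 13.9, 18.04 and 14.4 CPM in morphine (log2 fold change -0.29, SE 0.14, edgeR adjusted p = 0.664). Stx3 had 23.0, 32.5 and 31.4 CPM against 23.9, 29.1 and 24.9 (-0.16, adjusted p = 0.765), and Stx2 had 13.3, 17.1 and 16.4 CPM against 13.9, 15.9 and 12.6 (-0.15, adjusted p = 0.775). In all 3 genes, saline sample 1 lay within or below the morphine range and morphine sample 2 was the highest of the morphine libraries. Without saline sample 1, Snap23 was at -0.42 (edgeR adjusted p = 0.0722), Stx3 at -0.30 (adjusted p = 0.116) and Stx2 at -0.25 (adjusted p = 0.382). In that fit 186 of all tested genes passed, none of them a member.

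Among the SNARE regulators, 3 of 7 were above 0 and the median was -0.01. Beside the complexins and Stxbp3 described above, Cplx1 had 296, 286 and 268 CPM in saline and 311, 282 and 297 CPM in morphine (log2 fold change 0.07, SE 0.06, edgeR adjusted p = 0.764). Stxbp5, the SNARE-binding inhibitor tomosyn, was at -0.01 with a 95% interval of -0.11 to 0.09, the narrowest of all members. Stxbp2, the Munc18 of granule release in blood cells, was at -0.19, and Stxbp6 (amisyn) at -0.15. Stxbp6 had 136 CPM in saline sample 1 and 102 to 109 CPM elsewhere, and without that library it was at -0.02.

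Of the 12 synaptotagmins and Doc2 genes, 11 were above 0, with a median of 0.07. Syt1 had 1639, 1642 and 1650.2 CPM in saline and 1815, 1628 and 1765 CPM in morphine, a log2 fold change of 0.08 (SE 0.06, edgeR adjusted p = 0.732). Syt11 had 643, 655 and 642 CPM against 685, 655 and 685, a change of 0.06 (SE 0.05, adjusted p = 0.749). Syt5 had 86.7, 84.4 and 85.3 CPM against 93.7, 87.6 and 92.4, a change of 0.09 (adjusted p = 0.673). Like Syt3, these genes repeated the order of libraries seen for the vesicle proteins, with morphine sample 2 the lowest morphine library. Syt13 had 237, 274 and 276 CPM against 289.96, 277 and 293, a change of 0.13 (adjusted p = 0.657), and without saline sample 1 the change was 0.07. Syt4 (0.06), Syt7 (0.01), Syt12 (0.02), Syt17 (0.08) and Doc2a (0.05) did not pass an unadjusted p of 0.05. Without saline sample 1, Syt12 was at -0.07 and Syt17 at 0.16, which was then under an unadjusted p of 0.05 (edgeR adjusted p = 0.33). The exons of Doc2a share 1103 bp with Ino80e on the other strand, whose counts were 46.2% of its own.

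All 4 genes of SNARE disassembly were above 0 (median 0.06), with Nsf, the ATPase, at 0.08, Napb at 0.05 and Napg at 0.03 beside Napa. Of the 11 genes of the active zone and Rab3, 7 were above 0 and the median was 0.08. Bsn (Bassoon) had 1229.7, 1535 and 1385 CPM in saline and 1636, 1412 and 1598 CPM in morphine, a log2 fold change of 0.16 (SE 0.09, adjusted p = 0.673 in edgeR and 0.879 in DESeq2). Rab3a, the main vesicle GTPase, had 274, 258 and 245 CPM against 294, 246 and 281, a change of 0.08 (SE 0.07, adjusted p = 0.778). Without saline sample 1, the lowest library for Bsn, its change was 0.09. The ranges of Bsn and Rab3a overlapped between the groups, since morphine sample 2 was at the level of saline. Pclo (Piccolo) was at 0.09, Rph3a (rabphilin) at 0.13, Unc13a at 0.09, Unc13c at 0.13, Rims1 at 0.08, Rims2 at -0.01 and Rab3c at -0.02. Unc13a was at 0.02 and Unc13c at 0.05 without saline sample 1.

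**Figure D3:**
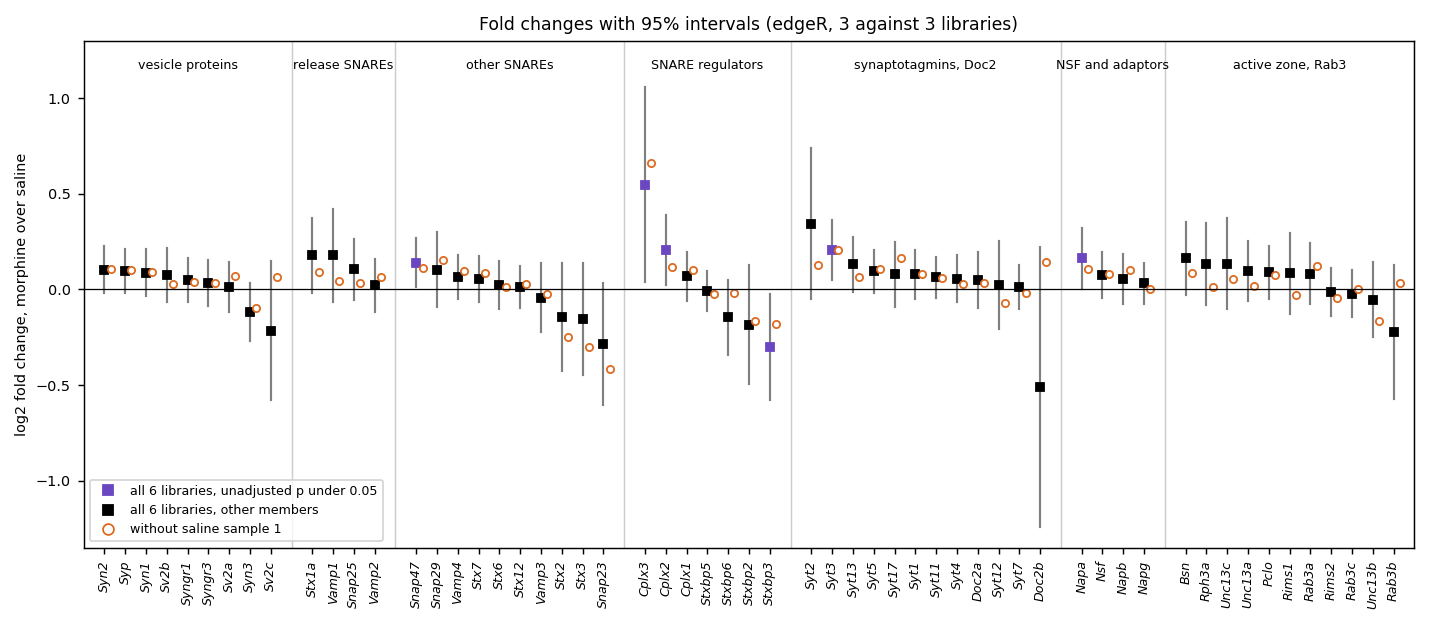
Log2 fold changes of the 57 genes by role. Squares with grey 95% intervals come from all 6 libraries (purple where the unadjusted p was under 0.05), and open circles leave out saline sample 1. Of the squares 42 lie above 0, most intervals cross 0, and the squares and circles differ most for Doc2b (-0.51 and 0.14).

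The precision of these values limited what could be seen. The 95% interval of the log2 fold change reached 0.15 to either side in the median member, 0.10 in the narrowest and 0.73 in the widest. For 39 of the 57 genes the whole interval lay within an increase of 25% or the same fold decrease, so that a larger difference than that was outside the interval for these genes.

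The direction of the fold changes followed the level of expression. All 24 members with a mean FPKM of at least 50 were above 0, with a median of 0.08, whereas 8 of the 19 members under 10 were, with a median of -0.05. The same order held over all tested genes. Of the 575 with at least 50 FPKM 87.7% were above 0 (median 0.07), of the 3890 with 10 to under 50 FPKM 65.4% were (median 0.03), and of the 14505 under 10 FPKM 41.0% were (median -0.04). The share of members with non-overlapping, higher morphine values was likewise 16.7% at 50 FPKM or more, against 14.4% of all tested genes of that level. These classes of level were chosen after the values had been seen. Read against genes of like level, the median and the non-overlapping share of the 24 abundant members were thus close to the background. The 14 members of 10 to under 50 FPKM had a median of 0.05, with 10 above 0. Of these, 3 (21.4%) had non-overlapping, higher morphine values, against 10.2% of all tested genes of that level. At an unadjusted p under 0.05 in edgeR, 2 (14.3%) were higher, against 5.09%. These shares were above those of like level, on few genes.

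**Figure D4:**
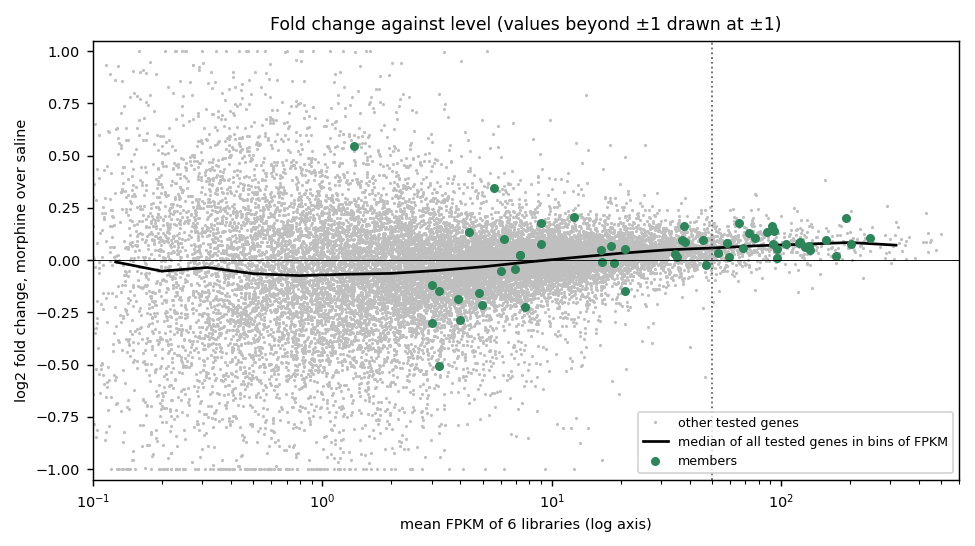
Log2 fold change (morphine over saline) against mean FPKM (log axis) for all tested genes (grey) and the 57 members (green). The black line, the median of all tested genes in bins of FPKM, climbs from below 0 at low level to above 0 beyond the dotted line at 50 FPKM, and all 24 members right of that line lie above 0 near it.

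By library, the members lay highest in morphine samples 1 and 3 and lowest in saline sample 1. Taken over members, log2 CPM minus its 6-library mean had a median of -0.05, -0.01 and -0.02 for the saline samples in their numbered order and of 0.05, -0.02 and 0.05 for the morphine samples. Morphine sample 2 thus lay at the level of the saline libraries, so that the group medians overlapped. Over all tested genes of at least 50 FPKM the medians of the same measure were -0.05, -0.02 and -0.02 in saline and 0.07, -0.03 and 0.07 in morphine. The summed FPKM of the members was likewise highest in morphine samples 1 and 3 and lowest in saline sample 1. It was 3109, 3186 and 3162 in saline and 3368, 3184 and 3320 in morphine. Across the 15 tested neuron markers, of which Snap25 is also a member, the medians were -0.12, 0.00 and -0.02 in saline and 0.09, -0.01 and 0.03 in morphine, and the part of neuron content in the members' values was not tested.

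Saline sample 1 shaped several of the wide differences, though not that of Cplx3, the widest of all members. It was the library furthest from the others for 24 of the 57 members (42.1%), as it was for 30.6% of all tested genes. Doc2b, a calcium sensor of spontaneous release, had 28.2 CPM in saline sample 1 against 9.62 and 11.5 in the other saline and 11.9, 11.5 and 11.4 in the morphine samples. The 5 other libraries were nearly level, and the log2 fold change was -0.51 (SE 0.33, edgeR adjusted p = 0.707) with saline sample 1 and 0.14 without it. Sv2c, the vesicle protein SV2C, had 70.0 CPM in that library and 42.0 to 45.6 in the others, with a log2 fold change of -0.21 that became 0.07. Rab3b had 38.0 CPM there and 23.4 to 25.5 elsewhere, with -0.22 becoming 0.03. These genes moved in saline sample 1 together with the olfactory bulb markers, among them the dopamine synthesis enzyme Th at 23.0 CPM against 0.566 to 1.27 in the others, and the part of that tissue in their values was not tested.

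Other members were low in saline sample 1. Syt2, the fast calcium sensor of parvalbumin interneurons, had 25.9 CPM there, 48.7 and 38.9 in the other saline and 52.4, 44.4 and 47.0 in the morphine samples. Its log2 fold change was 0.34 (SE 0.18, edgeR adjusted p = 0.672), and 0.13 without saline sample 1. Vamp1, the VAMP of the same fast-firing neurons, had 69.2 CPM there, 98.1 and 91.3 in the other saline and 103, 93.0 and 96.2 in the morphine samples, with a log2 fold change of 0.18 that became 0.04. Pvalb, which encodes parvalbumin, had 10.1 CPM in saline sample 1 and 17.3 to 20.9 CPM in the other libraries. The interneuron markers as a whole went the other way, with a summed CPM of 1918 there against 1295 to 1421, and Gad1, which makes GABA, had 560.3 CPM against 235 to 270.2. Their part in the values of Syt2 and Vamp1 was not tested. Rph3a (317 CPM against 403 to 437) and Rims1 (347 against 422 to 472) were also lowest there, and their log2 fold changes of 0.13 and 0.08 became 0.01 and -0.03.

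**Figure D5:**
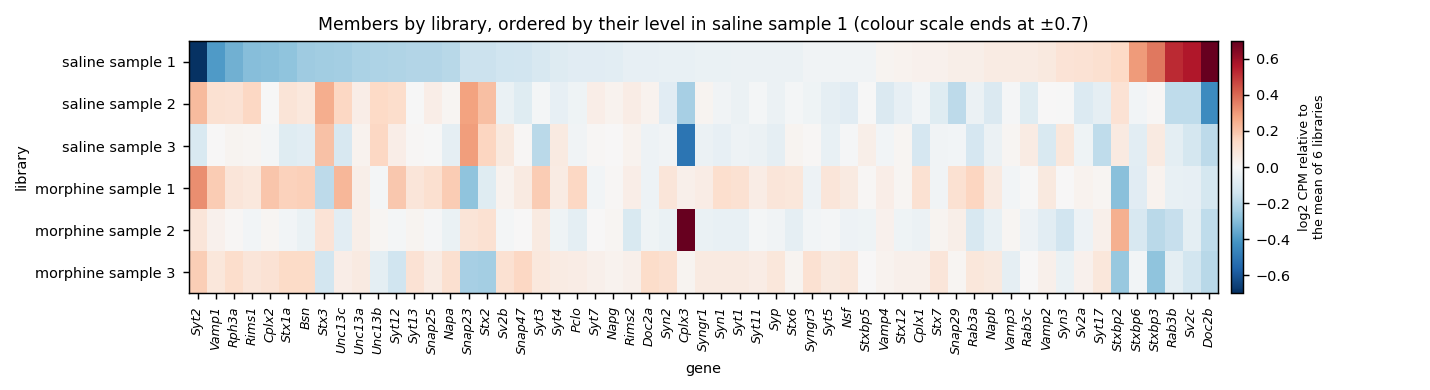
Log2 CPM of each member in each library relative to the mean of the 6, ordered by the level in saline sample 1, with a colour scale that ends at 0.7 either way. The ends of the top row, Syt2 (blue) and Doc2b (red), are the widest departures of that library, and Cplx3 in morphine sample 2 is the widest of the others.

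Ratios of paralogs within a library do not move with library scaling, and 16 pairs were compared. With 3 against 3 samples the smallest p of an exact permutation test is 0.1. In 1 pair the groups did not overlap. Unc13b counts were 23.8%, 25.3% and 25.8% of Unc13a counts in saline and 22.8%, 23.3% and 21.7% in morphine. This is a difference of -0.14 in the log2 ratio, at the smallest p the design allows (exact permutation test, two-sided, p = 0.1, adjusted p = 0.727 over the pairs), and of -0.18 without saline sample 1. Unc13b and Unc13a both encode priming factors, which differ in their short-term plasticity. Unc13b itself had 118, 150.5 and 151 CPM in saline and 135, 138 and 130.5 CPM in morphine, with a log2 fold change of -0.05 that became -0.16 (edgeR adjusted p = 0.15) without saline sample 1. Exons of Unc13a share 495 bp with Colgalt1, whose counts were 6.72% of those of Unc13a.

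The other 15 pairs overlapped between the groups. Several of their differences rested on saline sample 1, as the log2 ratio of Syt2 to Syt1 differed by 0.31 with it and by 0.06 without it, that of Vamp1 to Vamp2 by 0.17 and -0.02, that of Doc2b to Doc2a by -0.38 and 0.12, and that of Cplx1 to Cplx2 by -0.14 and -0.01. The ratios of Snap23 to Snap25 (-0.39) and Stx3 to Stx1a (-0.33) stayed negative without any single library (p = 0.2 for each, exact permutation test). Mean FPKM was 3.99 for Snap23 against 244 for Snap25, and 4.81 for Stx3 against 65.6 for Stx1a. It was 6.02 for Unc13b against 45.7 for Unc13a. The part of level in these ratios was not tested. The ratio of Syn2 to Syn1 differed by 0.02 and that of Syngr3 to Syngr1 by -0.02.

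Other genes of the same pathway gave the following picture. Of 52 tested genes of the same families or of the active zone, 29 were above 0 (median 0.01). At an unadjusted p under 0.05 in edgeR, 1 was higher and 5 were lower, where 2.77% and 4.96% of all tested genes were. Ppfia1, a liprin-alpha that binds RIM and LAR phosphatases, had 45.9, 46.7 and 45.6 CPM in saline and 40.9, 39.0 and 39.3 CPM in morphine (log2 fold change -0.22, SE 0.06, edgeR adjusted p = 0.573). Its groups did not overlap, nor did those of its paralog Ppfia2 (188, 169.5 and 164 against 158, 145 and 155 CPM, -0.19, adjusted p = 0.605). Rab27b, a Rab of secretory vesicles, was higher (53.6, 57.9 and 60.8 against 65.5, 63.3 and 67.9 CPM, 0.19, adjusted p = 0.608). Baiap3, a Munc13 relative, was at -0.95, with 12.6 CPM in saline sample 1 and 3.48 to 5.04 in the other libraries.

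Of 33 tested genes of vesicle endocytosis, 27 were above 0 (median 0.05), 2 were higher and 0 were lower (unadjusted p under 0.05). Of all tested genes, 2.77% were higher and 4.96% lower. The 2 higher genes were Epn1 (epsin 1, log2 fold change 0.13) and Pip5k1c (0.17), a kinase that makes the lipid PIP2 at synapses. Synj2 (0.12) and Sh3gl2 (0.10) came next. Of 18 tested subunits of the proton pump that acidifies vesicles, 16 were above 0 (median 0.07), 2 were higher and 0 lower, where 2.77% and 4.96% of all tested genes were. In 8 of them all morphine libraries lay above all saline libraries, where 5.98% of all tested genes and 14.4% of those of at least 50 FPKM did. Atp6v1g2, a neuronal subunit, had 138.8, 137 and 139.4 CPM in saline and 166, 147 and 152 CPM in morphine (0.16, edgeR adjusted p = 0.616). Atp6v1e1 had 183, 182 and 183 CPM against 205, 191 and 205 (0.14), and Atp6v1f (0.16) and Atp6v1c1 (0.13) followed. No gene of the 3 lists passed an adjusted p of 0.05 in edgeR.

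Cell type markers were read in the same way. The median log2 fold change was 0.09 over 15 neuron markers (13 above 0), 0.13 over 11 markers of upper layers (9 above 0), 0.00 over 12 of deep layers (6 above 0) and 0.07 over 15 of interneurons (10 above 0). It was 0.07 over 12 astrocyte markers (7 above 0), 0.12 over 12 oligodendrocyte markers (12 above 0), 0.04 over 12 microglia markers (9 above 0) and 0.10 over 12 endothelial markers (10 above 0). For the 17 olfactory bulb markers it was -1.13, with 0 above 0. The summed CPM of the upper layer markers was lowest in saline sample 1, at 1260 against 1403 to 1616, as were Rph3a, Rims1 and Cplx2, and the part of layer content in their values was not tested.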

How the data were processed

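RNA of mouse mPFC was sequenced from rRNA-depleted, directional libraries of 3 saline and 3 morphine samples. The authors deposited 1 table with raw counts and FPKM values per gene and library. The submitters' notes list the build mm10 and, among the tools, HISAT2 (2.1.0), HTSeq (0.11.2) and cutadapt (1.9.3), with no role stated. The study took the FPKM values of its lncRNAs from StringTie (1.3.3). The sources used here do not give the strand setting of the counting. For lncRNAs the study tested with DEGseq, which takes no replicate spread, and its paper names no test for mRNAs. Counts were tested here with edgeR 4.0.16 (R 4.3.3): TMM, at least 10 counts in at least 3 of 6 libraries, quasi-likelihood F test, two-sided. Adjustment was by Benjamini-Hochberg over 18970 genes. CPM values are TMM-normalized. Alternatives used DESeq2 1.42.0 and limma 3.58.1 on log2(FPKM + 0.1) or log2(FPKM + 1). Paralog ratios used exact permutation tests (scipy 1.17.1).

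Gene positions and overlaps came from GENCODE (GRCm38) and promoters from RefSeq (GRCm38.p6). The members and gene lists were chosen with earlier results of these data known. Named in full are members with an unadjusted p under 0.05 in edgeR or DESeq2 and the 10 of highest FPKM, by library those whose groups do not overlap, and the 4 genes of lowest p of each pathway list; other members with values by library (Doc2b, Sv2c, Rab3b, Syt2, Vamp1, Syn3, Snap23, Stx2, Stx3, Unc13b, Rph3a, Rims1) and markers were chosen after their values were seen. Stn1, entered in the endocytosis list by mistake, was left out. The scripts were tested on simulated data. Intervals cover 95%.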

Additional observations from a re-analysis of the deposited data

How the results depend on the processing

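No member passed an adjusted p of 0.05 under any of the 14 alternatives. The median log2 fold change of the members stayed between 0.04 and 0.08, and 37 to 44 members lay above 0. Counts at an unadjusted p under 0.05 moved most. Without a filter on low counts, 11 members were higher and 6 lower, where 2.71% and 5.16% of all tested genes were. In limma on log2(FPKM + 0.1), with or without a filter on low values, 0 were higher and 0 lower. Of all tested genes, 2.34% and 4.55% were with that filter, and 1.97% and 3.47% without it. On log2(FPKM + 1) 1 was higher (Syt3) and 0 lower, where 2.32% and 4.79% of all tested genes were. On FPKM, 2 members lay below with groups that did not overlap. Leaving out 1 library gave 1 to 13 higher and 0 to 4 lower members, where 1.33% to 4.14% and 2.37% to 7.53% of all tested genes were. It also gave 7 to 22 members above and 0 to 4 below with groups that did not overlap. For these non-overlapping counts, as for those on FPKM, no share over all genes is given. With a library left out, non-overlap is easier to meet, so these counts cannot be compared with the 8 members of all 6 libraries. The highest counts came without morphine sample 2 (13 and 22) and without saline sample 1 (4 and 4). The cause of these shifts was not tested, beyond there being fewer samples. With the replicate number as a block, 3 members were higher (Cplx3, Snap47, Syt3) and 2 lower (Snap23, Stxbp3). Of all tested genes, 2.29% and 4.64% were. Samples of the same number did not deviate together (correlations 0.02, 0.00 and -0.02), so the numbers were not read as pairs. DESeq2 gave 7 higher and 1 lower, where 2.003% and 3.13% of all tested genes were. RLE factors and a filter of 10 counts in all 6 libraries gave 5 and 1 as in the values reported. Of all tested genes, 3.24% and 4.62% were with RLE factors, and 2.94% and 5.09% with that filter. Paralog ratios of FPKM gave the same differences as those of counts. This was fixed in advance, since gene length and library size cancel in the difference, and so it is no check. Depth limits the rare members, such as Cplx3 at 1.38 FPKM.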
